A study of Homo sapiens with 9 samples.

Results

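The 50 genes described here encode proteins of mismatch repair (5 genes), base excision repair (18), nucleotide excision repair (13), end joining (11) and direct reversal of alkylation damage (3). They were taken by symbol from a table of 60662 genes, and every one of them was found. RNA-seq was available for SET2, a *JAK2* mutant megakaryoblastic leukemia line labelled as post-MPN AML (MPN, myeloproliferative neoplasm), in 9 libraries: WT cells (n = 3), *DYRK1A* KO clone 11H1 (n = 3) and *DYRK1A* KO clone 14B5 (n = 3). No group received treatment, and all 3 derive from the same parental line. Each clone was grown from a single sorted cell after Cas9 ribonucleoprotein had been introduced by nucleofection, and clones with out-of-frame indels were kept. No clone of unedited SET2 cells was sequenced, so loss of *DYRK1A* and passage through a single cell cannot be told apart. The paper counts 5 KO libraries where 6 were deposited, and all 6 were used. The labels do not say that libraries of a group came from separate cultures, so p values measure the spread between these libraries, which may be technical. In KO versus WT the 6 KO libraries of the 2 clones are treated as independent, so the spread there also holds the difference between the clones.

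Mismatch repair removes bases that the replication fork paired wrongly. In base excision repair a glycosylase cuts out a single damaged base, an endonuclease opens the strand, and a polymerase and a ligase close the gap. Nucleotide excision repair cuts out a stretch of DNA around a bulky lesion, and classical end joining rejoins double-strand breaks without a template. Direct reversal removes the alkyl group from the base with no cut at all. DYRK1A is a kinase that phosphorylates LIN52, a step in the assembly of DREAM, a complex that represses cell cycle and repair genes.

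Library totals ran from 32347779 to 60272245 expected counts (estimated reads per gene, with multi-mapping reads shared out by RSEM). Levels are given as CPM, the count of a gene rescaled to equal library size by the TMM method of edgeR. *DYRK1A* itself was at 196 to 219 CPM in WT and 174 to 192 in KO. Transcripts with a frameshift are still counted, so this level does not test the edit. Summed megakaryocyte markers were at 1071 to 1074 CPM in WT, 722 to 749 in 11H1 and 654 to 676 in 14B5, with 8 of 8 tested markers lower in KO versus WT. Summed erythroid markers were at 217 to 230 CPM in WT, 284 to 296 in 11H1 and 242 to 250 in 14B5. Of the 5 tested, 2 were higher and 1 was lower in KO versus WT, with a median log2 fold change (log2FC) of -0.03, so the list did not move together. Summed B cell markers were at 40.3 to 47.2 CPM in WT, 31.2 to 32.0 in 11H1 and 23.6 to 30.1 in 14B5, with 3 of 3 tested markers lower in KO versus WT. T cell markers summed to 0.61 to 4.56 CPM, fibroblast markers to 0.284 to 2.34 and epithelial markers to 0.0609 to 0.656, with 4 of 5 epithelial markers at 0 in every library. The mitochondrial share of counts was 3.54% to 6.03% in WT, 7.23% to 7.39% in 11H1 and 3.30% to 3.92% in 14B5. The part of these shifts in the results was not tested, and in bulk RNA fewer cells of a type and less RNA per cell cannot be told apart.

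Promoters are shown because DREAM binds through E2F sites and a short element known as CHR, and because *MGMT* fell to 0 counts. The windows come from RefSeq on GRCh38.p14, with 250 bases before and 50 bases after the start of each gene, and 45 of the 50 genes had one. The CHR element was searched as TTTGAA and the E2F site as TTTCCCGC, TTTCGCGC, TTTGCCGC or TTTGGCGC, on both strands. Capitals mark the matches.
*MSH6* (chr2:47782895-47783194, + strand, an E2F word 3 bases after the start): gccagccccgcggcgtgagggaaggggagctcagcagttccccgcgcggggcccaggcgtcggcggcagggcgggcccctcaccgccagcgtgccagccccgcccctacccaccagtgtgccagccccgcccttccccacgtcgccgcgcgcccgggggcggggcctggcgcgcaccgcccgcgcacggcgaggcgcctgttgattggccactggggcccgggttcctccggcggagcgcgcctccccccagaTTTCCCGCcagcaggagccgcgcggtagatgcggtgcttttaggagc
*NEIL3* (chr4:177309624-177309923, + strand, a CHR word at position -24 from the start): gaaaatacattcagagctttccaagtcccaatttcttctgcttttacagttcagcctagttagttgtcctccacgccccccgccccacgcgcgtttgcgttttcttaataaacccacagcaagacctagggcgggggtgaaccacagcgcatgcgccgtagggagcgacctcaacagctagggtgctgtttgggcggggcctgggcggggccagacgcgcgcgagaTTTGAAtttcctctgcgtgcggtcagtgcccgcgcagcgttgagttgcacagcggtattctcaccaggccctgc
*RIF1* (chr2:151409652-151409951, + strand, a CHR word at position -204): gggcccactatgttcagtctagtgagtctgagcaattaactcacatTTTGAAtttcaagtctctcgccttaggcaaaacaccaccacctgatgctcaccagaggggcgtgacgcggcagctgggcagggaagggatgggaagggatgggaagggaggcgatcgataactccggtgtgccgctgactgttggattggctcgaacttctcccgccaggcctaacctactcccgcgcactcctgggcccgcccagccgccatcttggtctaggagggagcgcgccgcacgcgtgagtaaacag
*MGMT* (chr10:129466991-129467290, + strand, no match): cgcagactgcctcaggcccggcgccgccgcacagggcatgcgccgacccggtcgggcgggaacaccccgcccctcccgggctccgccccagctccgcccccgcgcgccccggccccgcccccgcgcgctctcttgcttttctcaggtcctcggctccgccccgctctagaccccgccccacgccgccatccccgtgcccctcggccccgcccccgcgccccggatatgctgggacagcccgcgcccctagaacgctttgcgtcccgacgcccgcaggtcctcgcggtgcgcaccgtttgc
The CHR word was in 3 of the 45 windows (6.67%), those of *NEIL3*, *RIF1* and *XRCC1*, and in 15.2% of 35116 RefSeq promoter windows of the same length. An E2F word was in 5 of the 45 windows (11.1%), those of *MSH6*, *XPC*, *MSH3*, *PMS2* and *XRCC6*, and in 3.31% of all windows. The *MSH3* window held 2 E2F words that overlap on opposite strands. Of the 7 genes with a window that rose in KO versus WT (described below), 3 held either word, beside 18.1% of all windows. Those 3 are the ones shown above, and the windows of *MBD4*, *OGG1*, *LIG3* and *PARP2* had no match. Among genes that did not pass in KO versus WT, 5 of 36 windows held either word. Whether the words bear on the changes was not tested. CG pairs numbered 45 in the *MGMT* window, against a median of 25 over the 45 windows and 14 over all windows.

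In WT cells the 50 genes spanned a wide range of levels per length (CPM per kb of merged exons). *XRCC6* (196 CPM per kb) and *XRCC5* (115), which encode the Ku heterodimer that holds broken ends, and *APEX1* (142), the main endonuclease at abasic sites, were the highest. The strand break sensor *PARP1* followed at 59.2 CPM per kb. The lowest levels per length were those of the glycosylase *NEIL1* (0.0172 CPM per kb) and of *MGMT* (0.117), and the next was *ERCC6* (0.871), the transcription-coupled repair factor.

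In KO versus WT, 10 of the 50 genes passed the threshold in edgeR's quasi-likelihood test (adjusted p below 0.05, adjusted over 17080 genes), 8 higher and 2 lower. Without *MGMT* the count was 9 of 49, with 8 higher and 1 lower. The background in this comparison was 32.0% of all genes tested, so the share called among the 50 genes was lower than the background, and 14.3% of all genes were called higher. The genes that rose were *MSH6*, *SMUG1*, *MBD4*, *OGG1*, *NEIL3*, *LIG3*, *PARP2* and *RIF1*, and those that fell were *ERCC3* and *MGMT*, whose loss was already known when the genes were chosen. The median log2FC of the 50 genes was 0.09, beside 0.02 over all genes tested. Among all genes 17.7% were called lower. Libraries did not overlap for 15 of the 50 genes, beside 36.6% of all genes. Of these, 12 were higher in KO (16.3% of all genes) and 3, *MGMT* among them, lower (20.3%). The number called was 5 without WT replicate 1, 5 without WT replicate 2 and 7 without WT replicate 3. It was 6 with the replicate number as a block and 29 in a single fit of the 3 groups.

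**Figure D1:**
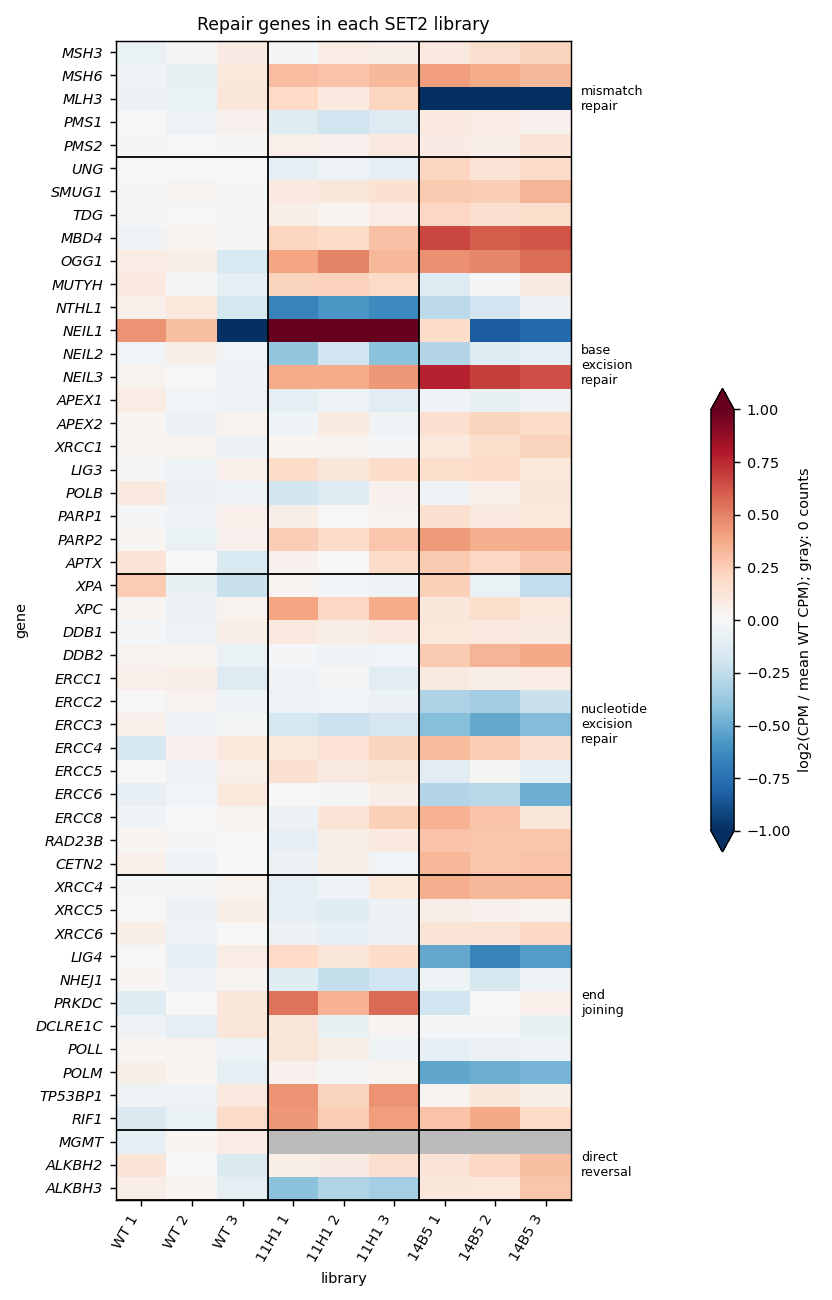
Heat map of the 50 repair genes (rows, by pathway) in the 9 libraries (columns), colored by log2 of CPM over the mean WT CPM, with colors saturating at -1 and 1 and gray for 0 counts. *MGMT* is gray in all 6 KO libraries and *MLH3* is dark blue in the 3 libraries of 14B5.

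The direct reversal enzyme *MGMT* (chr10:129467184-129768007, + strand; GENCODE v29, GRCh38), which takes alkyl groups from guanine onto itself, was the gene lost from KO cells. It had 19, 20 and 18 counts in the WT libraries (0.387, 0.419 and 0.438 CPM) and 0 counts in each of the 6 KO libraries. For a library with no count the upper limit is 3 counts, equal to 0.0502 to 0.0914 CPM across the KO libraries, and it covers counting error only. The groups did not overlap, and the level in WT was itself low. The pooled WT level was 38.8 times the limit of 3 counts over all 6 KO libraries, with the 57 WT counts taken as exact. With the counting error of the WT counts included, *MGMT* was at least 30.5-fold lower in KO than in WT, at least 13.0-fold lower in 11H1 and at least 17.5-fold lower in 14B5 (exact 95% bounds). These values are a description, with no test, because the choice of the genes names this loss and *MGMT* entered the comparison through its WT counts alone. Of all genes tested, 122 (0.714%) passed the threshold with at most 3 counts in every KO library, so *MGMT* was not alone in this pattern.

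Around *MGMT*, genes did not move in 1 direction. The nearest tested gene on the far side, the transcription factor gene *EBF3*, had 102 to 105 counts in the WT libraries and 0 in every KO library. Its lowest position is 368 kb from that of *MGMT*, and *MGMT* itself spans most of this distance. Distances here and below are between lowest positions of genes, not gaps between them. The tested gene after *EBF3*, *GLRX3* (669 kb), had a log2FC of 0.31 in 11H1 and 0.62 in 14B5 versus WT. Farther out, *BCCIP* rose in both clones (0.18 in 11H1 and 0.25 in 14B5). *DHX32* (-1.26 and -0.59), *BNIP3* (-3.76 and -1.05) and *STK32C* (-1.29 and -0.92) fell in both. The median log2FC of the 10 nearest tested genes, 5 on each side, was 0.09 in 11H1 and -0.29 in 14B5. The other direct reversal enzymes behaved otherwise. *ALKBH2*, a dioxygenase that demethylates bases in DNA, was at 20.7, 19.0 and 17.1 CPM in WT, 19.7, 20.1 and 21.1 in 11H1 and 20.7, 21.9 and 23.3 in 14B5. These groups overlapped, and its log2FC of 0.16 ± 0.08 (SE) in KO versus WT did not pass (edgeR adjusted p = 0.172). *ALKBH3*, a related dioxygenase, fell in 11H1 (log2FC -0.35, edgeR adjusted p = 0.000582) and had a log2FC of 0.15 in 14B5 (adjusted p = 0.0849).

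**Figure D2:**
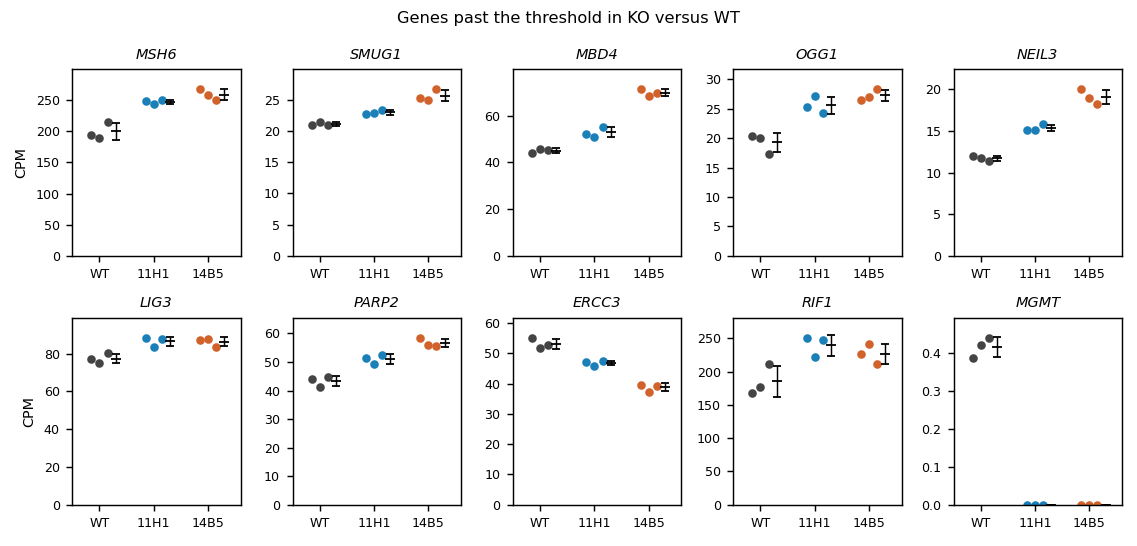
Level (CPM, linear axis from 0) of the 10 genes past the threshold in KO versus WT, with a point per library and, to its right, the mean and SD of each group (n = 3). WT points sit apart from the points of both clones in each panel.

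Among mismatch repair genes, *MSH6* rose and the others did not pass in KO versus WT. The share past the threshold was 1 of 5, beside 32.0% of all genes, with a median log2FC of 0.08. *MSH6* (chr2:47695530-47810101, + strand), the subunit that recognizes base-base mismatches and short loops, was at 194, 190 and 215 CPM in WT, 248, 244 and 250 in 11H1 and 267, 258 and 250 in 14B5. Every KO library was above every WT library. The log2FC was 0.34 ± 0.06 (SE; edgeR adjusted p = 0.00187; 2-sided exact permutation p = 0.0119), with 0.31 in 11H1 and 0.36 in 14B5 versus WT. A permutation p of 0.0119 is the smallest that 6 libraries against 3 can give, here and in the genes that follow, and it treats the libraries of both clones as independent KO libraries. The call held in all 16 alternatives, with a log2FC of 0.31 to 0.40. *FBXO11*, which shares 16.2% of the exon bases of *MSH6* on the opposite strand, had a log2FC of 0.11 in KO versus WT (adjusted p = 0.183).

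*MLH3* (chr14:75013764-75051532, - strand), a subunit of a nuclease of mismatch repair and meiosis, separated the clones. It was at 15.5, 15.4 and 17.6 CPM in WT, 18.6, 17.3 and 18.8 in 11H1, and 4.27, 3.25 and 3.85 in 14B5. The 14B5 libraries lay far below all others, while the lowest 11H1 library lay within the WT range. *MLH3* fell in 14B5 (log2FC -2.11 ± 0.11 versus WT, edgeR adjusted p = 1.44e-07, 4.27-fold lower in mean CPM) and rose slightly in 11H1 (log2FC 0.18 ± 0.07, adjusted p = 0.0409). The rise in 11H1 was lost in 8 of 13 alternatives: adjusted p was 0.131 without WT replicate 1, 0.161 without WT replicate 2, 0.131 without 11H1 replicate 1 and 0.116 without 11H1 replicate 3. The fall in 14B5 passed in all 13. Pooled over both clones, *MLH3* had a log2FC of -0.56 ± 0.59 (adjusted p = 0.497), a value that averages 2 different clones.

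The genes around *MLH3* were chosen after its values were seen, and distances are between lowest positions. *EIF2B2* (10.9 kb) had a log2FC of 0.13 in 14B5. *ACYP1* (39.5 kb), which begins just past the upper end of *MLH3*, had one of 0.11. *ZC2HC1C* (50.4 kb), at 0.835 CPM in WT, fell in 14B5 (log2FC -4.96) and in 11H1 (-1.88). The median was -0.01 in 14B5 over the 9 of these 10 genes tested there. The other mismatch repair genes had small values: *MSH3*, the partner for larger loops, had a log2FC of 0.10 in KO versus WT, *PMS2*, an endonuclease subunit, 0.08, and *PMS1*, a related subunit, -0.03. *PMS1* fell in 11H1 (log2FC -0.14, edgeR adjusted p = 0.031). Reads of *PMS2* are shared with near copies (its values were not whole in all 9 libraries), so its level is uncertain. Of 11 further mismatch repair genes, 7 rose and 1 fell in KO versus WT, beside 14.3% and 17.7% of all genes. Among them *RFC3* of the clamp loader had a log2FC of 0.48, the exonuclease gene *EXO1* 0.35 and *POLD4*, a small subunit of the replicative polymerase, -0.44.

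Base excision repair held 6 of the 8 genes that rose in KO versus WT (6 of 18 past the threshold, or 33.3% beside 32.0% of all genes, each of them higher, with a median log2FC of 0.11 over the 18). *NEIL3*, a glycosylase for oxidized bases in single-stranded and crosslinked DNA, had the largest of these rises. It was at 12.0, 11.7 and 11.4 CPM in WT, 15.1, 15.1 and 15.8 in 11H1, and 20.0, 18.9 and 18.3 in 14B5. The 3 groups did not overlap at all, with 14B5 highest. *NEIL3* rose by a log2FC of 0.56 ± 0.11 (edgeR adjusted p = 0.00348; exact permutation p = 0.0119), by 0.40 in 11H1 and by 0.68 in 14B5.

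*OGG1*, the glycosylase for oxidized guanine, was at 20.3, 20.1 and 17.4 CPM in WT, 25.3, 27.2 and 24.3 in 11H1 and 26.5, 27.1 and 28.3 in 14B5. Both clones were above WT, and they overlapped each other. The log2FC was 0.46 ± 0.08 (edgeR adjusted p = 0.00144; exact permutation p = 0.0119). *MBD4*, which removes thymine and uracil opposite guanine at methylated sites, was at 43.9, 45.8 and 45.5 CPM in WT, 52.3, 51.1 and 55.3 in 11H1, and 71.4, 68.4 and 69.8 in 14B5. Its rise was graded, with no overlap between any of the groups. The log2FC was 0.45 ± 0.12 in KO versus WT (edgeR adjusted p = 0.0195), with 0.24 for 11H1 and 0.62 for 14B5. The pooled call on *MBD4* was lost without any single WT library (adjusted p 0.0755, 0.0616 and 0.0651 without WT replicates 1, 2 and 3), whereas the call in each clone held in all 13 alternatives. *IFT122*, whose exons cover 4.29% of those of *MBD4* on the opposite strand, also rose (log2FC 0.69, adjusted p = 0.00246). *CAMK1*, which covers 25.0% of *OGG1* on the opposite strand, had at most 14 counts in a library. *TADA3* covers 4.08% of *OGG1* on that strand, with up to 8802 counts. Its log2FC was 0.05 in KO versus WT (edgeR adjusted p = 0.811), -0.18 in 11H1 and 0.23 in 14B5.

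*PARP2*, a sensor of strand breaks that works beside PARP1, was at 44.0, 41.3 and 44.6 CPM in WT, 51.2, 49.2 and 52.6 in 11H1 and 58.3, 55.8 and 55.7 in 14B5. Again the 3 groups did not overlap. *PARP2* rose by a log2FC of 0.31 ± 0.07 (edgeR adjusted p = 0.00532; exact permutation p = 0.0119), a call that held in all 16 alternatives, as did those on *NEIL3* and *OGG1*. *LIG3*, the ligase that seals the last nick with XRCC1, was at 76.9, 75.1 and 80.2 CPM in WT, 88.1, 83.7 and 87.8 in 11H1 and 87.4, 87.9 and 83.4 in 14B5. The clones overlapped each other and lay above WT, by a log2FC of 0.16 ± 0.05 (edgeR adjusted p = 0.0325). *SMUG1*, a uracil glycosylase, was at 20.9, 21.5 and 20.9 CPM in WT, 22.6, 22.8 and 23.4 in 11H1 and 25.2, 25.0 and 26.6 in 14B5. Its groups did not overlap, but the log2FC of 0.20 ± 0.07 passed narrowly (edgeR adjusted p = 0.0479).

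The calls on *SMUG1* and *LIG3* were the least stable. *SMUG1* missed the threshold in 10 of 16 alternatives, including 7 single libraries left out (adjusted p 0.141, 0.107 and 0.135 without WT replicates 1, 2 and 3, 0.0543 without 11H1 replicate 3, and 0.0764, 0.0768 and 0.0691 without 14B5 replicates 1, 2 and 3). *LIG3* missed it in 8 of 16 (adjusted p 0.129 without WT replicate 1 and 0.129 without replicate 2, 0.0518 and 0.0672 without 11H1 replicates 1 and 3, 0.0504 and 0.0569 without 14B5 replicates 1 and 2). *RFFL*, which shares 29.1% of the exon bases of *LIG3* on the opposite strand, moved the other way (log2FC -0.17, edgeR adjusted p = 0.0348).

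*NTHL1*, a glycosylase for oxidized pyrimidines, had the lowest log2FC of the base excision genes in KO versus WT. It was at 37.0, 38.4 and 31.6 CPM in WT, 22.5, 23.8 and 22.9 in 11H1 and 29.8, 31.3 and 34.4 in 14B5. All 11H1 libraries lay below WT, while 14B5 overlapped WT. *TSC2* shares 16.5% of the exon bases of *NTHL1* on the opposite strand, with up to 7173 counts, so the *NTHL1* counts carry some uncertainty. *NTHL1* fell in 11H1 (log2FC -0.63 ± 0.07, edgeR adjusted p = 1.24e-05); the log2FC was -0.18 ± 0.08 in 14B5 (adjusted p = 0.0794) and -0.38 ± 0.15 over both clones (adjusted p = 0.0741), which passed only without 14B5 replicate 3 (adjusted p = 0.0262) and in the single fit of 3 groups (0.00012). *NEIL1*, another glycosylase for oxidized pyrimidines, had a log2FC of 0.86 ± 0.70 and did not pass (adjusted p = 0.381). It was nearly silent, with 2 to 20 counts a library: 0.163, 0.147 and 0.0486 CPM in WT, 0.367, 0.396 and 0.365 in 11H1, and 0.135, 0.0669 and 0.0696 in 14B5. The 11H1 libraries were above the others, and WT replicate 3 was below its own limit of 3 counts (0.0729 CPM). *NEIL1* passed the filter on low counts only in the comparisons that hold 11H1, where it was highest, so its log2FC of 1.59 ± 0.40 in 11H1 versus WT is a description; it was not tested in 14B5 versus WT. *MAN2C1* overlaps 26.4% of its exon bases on the opposite strand with up to 5450 counts, so the *NEIL1* counts are uncertain.

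The remaining base excision genes had smaller values. *NEIL2*, a further glycosylase, was lower in every KO library than in WT, with a log2FC of -0.32 in 11H1 and -0.18 in 14B5, each past the threshold (edgeR adjusted p = 0.00221 and 0.0495), and missed it in KO versus WT (adjusted p = 0.0583). The uracil glycosylase *UNG* (log2FC 0.16), the thymine glycosylase *TDG* (0.17), the endonuclease *APEX2* (0.17), the scaffold *XRCC1* (0.15) and the end-processing enzyme *APTX* (0.23) rose in 14B5 versus WT. In 11H1 these 5 genes ran from -0.08 to 0.08, and none of them passed. *MUTYH*, which removes adenine opposite oxidized guanine, rose in 11H1 (log2FC 0.22, edgeR adjusted p = 0.0116) and had a log2FC of -0.03 in 14B5. *APEX1*, the gap-filling polymerase *POLB* and *PARP1* passed in neither clone (log2FC -0.08 to 0.11). Of 9 further base excision genes, 3 rose and 2 fell in KO versus WT, beside 14.3% and 17.7% of all genes. Among them were the replicative ligase *LIG1* (0.41) and *PARP3*, a PARP family gene (-0.87).

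Of the nucleotide excision repair genes 1 of 13 passed in KO versus WT, beside 32.0% of all genes, and the median log2FC was 0.09. The gene that fell was *ERCC3* (chr2:127257290-127294176, - strand), a helicase subunit of TFIIH that opens DNA at promoters and lesions. *ERCC3* was at 54.9, 51.7 and 52.8 CPM in WT, 47.0, 45.9 and 47.4 in 11H1, and 39.6, 37.2 and 39.3 in 14B5. The groups did not overlap, and 14B5 was lowest. The log2FC was -0.32 ± 0.09 (edgeR adjusted p = 0.0215), -0.18 in 11H1 (adjusted p = 0.0058) and -0.47 in 14B5 (adjusted p = 2.73e-05). Leaving out any WT library moved the pooled adjusted p to 0.0908, 0.0604 and 0.06, while the call in each clone held in all 13 alternatives.

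Genes around *ERCC3*, chosen after its values were seen, were lower as well, out to *TSN* at -5520 kb between lowest positions. Of the 10 nearest tested genes, 9 fell in KO versus WT, beside 17.7% of all genes. The median log2FC of the 10 was -0.54, with -0.75 in 11H1 and -0.58 in 14B5. WT levels were low for *LIMS2* (0.694 CPM), *MAP3K2-DT* (0.866) and *LINC01889* (0.885), which fell, and for *YWHAZP2* (0.749), which did not. *IWS1* (179 kb) was at a log2FC of -0.55 in 11H1 and -0.56 in 14B5, and *WDR33* (444 kb) at -0.48 and -0.60. *BIN1* (209 kb on the other side) was at -1.37 and -1.84.

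**Figure D3:**
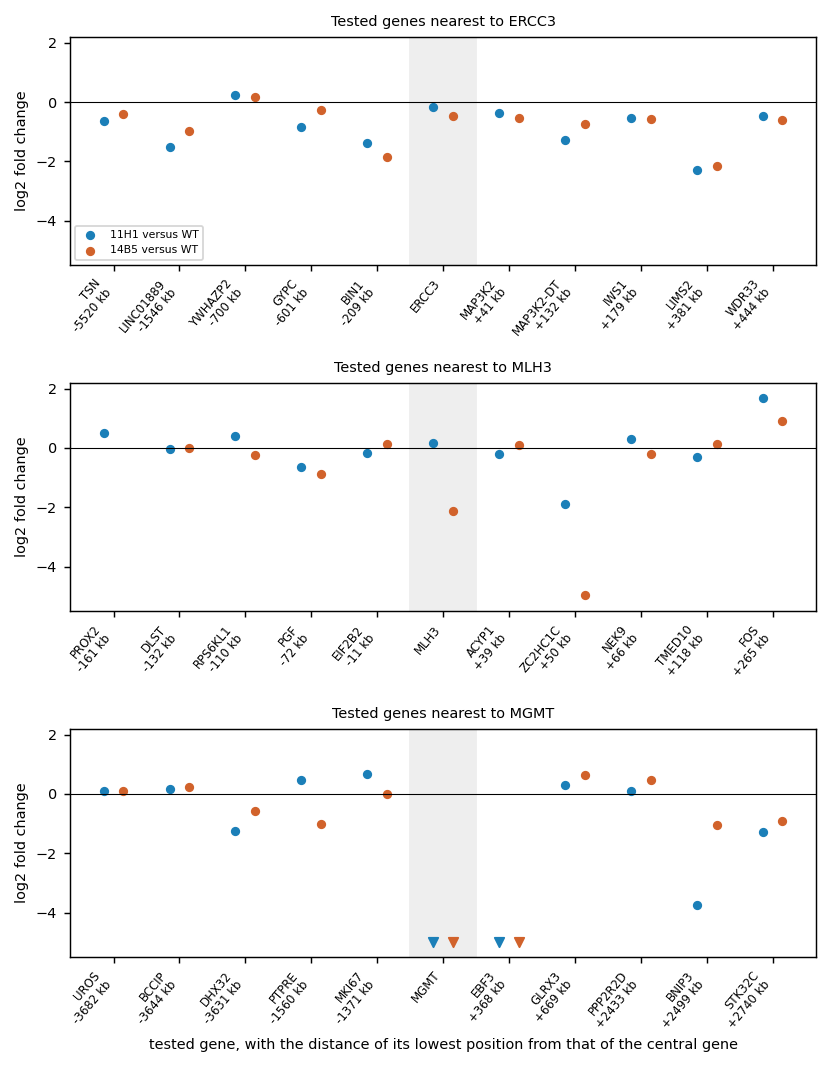
Log2 fold change versus WT in 11H1 (blue) and 14B5 (orange) for *ERCC3*, *MLH3* and *MGMT* (shaded) and the 5 nearest tested genes on each side. Under each name is the distance in kb between lowest positions, which is not the gap between the genes. Triangles at -5 mark genes with 0 counts in all KO libraries, whose fitted value has no true size. Of the 10 neighbours of *ERCC3*, 9 lie below 0 in both clones, whereas those of *MLH3* and *MGMT* lie on both sides.

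*XPC*, which finds distorting lesions across the genome, had the highest log2FC of the nucleotide excision genes. It was at 23.3, 21.9 and 23.3 CPM in WT, 30.0, 26.4 and 29.5 in 11H1 and 24.7, 25.8 and 24.6 in 14B5. Both clones lay above WT, 11H1 more so. The log2FC of 0.23 ± 0.08 in KO versus WT did not pass (edgeR adjusted p = 0.0544); it passed without 14B5 replicate 1 (0.0437), without 14B5 replicate 3 (0.0414), in DESeq2 (0.0434) and in the single fit of 3 groups (0.00145). *XPC* rose in 11H1 (log2FC 0.34, adjusted p = 0.000608).

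Several of the others passed in 1 clone. In 14B5 versus WT, *DDB2*, the ultraviolet lesion sensor, rose (log2FC 0.31), as did *RAD23B* (0.26) and *CETN2* (0.28), the partners of XPC. The nuclease subunit *ERCC4* (0.23) and the transcription-coupled repair gene *ERCC8* (0.24) rose too. The TFIIH helicase *ERCC2* (-0.31) and the transcription-coupled factor *ERCC6* (-0.37) fell. None of these 7 passed in 11H1, where the nuclease *ERCC5* rose (0.13, edgeR adjusted p = 0.028). On the same strand, *BIVM* shares 19.1% of the exon bases of *ERCC5* (up to 2869 counts). *GNL3LP1* likewise shares 28.3% of those of *ERCC8* (up to 127.4 counts). *DDB1*, the partner of DDB2, the damage verifier *XPA* and *ERCC1*, the partner of ERCC4, passed in neither clone (log2FC -0.04 to 0.09). Of 13 further nucleotide excision genes, 1 rose and 1 fell in KO versus WT, beside 14.3% and 17.7% of all genes. They were *RPA1* of the single-strand binding complex (0.33) and *GTF2H5* of TFIIH (-0.41).

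End joining genes had a median log2FC of -0.00 in KO versus WT, and 1 of 11 passed, beside 32.0% of all genes. *RIF1*, which with TP53BP1 protects broken ends from resection, was at 168, 177 and 212 CPM in WT, 250, 222 and 248 in 11H1 and 226, 241 and 212 in 14B5. Every KO library was above WT, although the lowest of 14B5 exceeded the highest of WT only slightly. *RIF1* rose by a log2FC of 0.33 ± 0.09 (edgeR adjusted p = 0.016; exact permutation p = 0.0119). The call was lost without WT replicate 1 (log2FC 0.26, adjusted p = 0.0983) and without WT replicate 2 (0.31, adjusted p = 0.073).

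*LIG4* (chr13:108207439-108218368, - strand), the ligase of classical end joining, went in opposite directions in the clones. It was at 37.7, 35.6 and 39.5 CPM in WT, 43.3, 40.8 and 42.7 in 11H1, and 26.4, 23.7 and 25.5 in 14B5. The 3 groups did not overlap, with WT in between. *LIG4* rose in 11H1 (log2FC 0.18 ± 0.05, edgeR adjusted p = 0.0126) and fell in 14B5 (-0.59 ± 0.06, adjusted p = 2.06e-05). The rise in 11H1 was lost without WT replicate 2 (adjusted p = 0.0843) and without 11H1 replicate 1 (0.0615), while the fall in 14B5 held in all 13 alternatives. The median log2FC of its 10 nearest tested genes, chosen after its values were seen, was -0.12 in 11H1 and -0.18 in 14B5, where 7 of the 10 were below 0. The lowest position of *ABHD13* is 10.9 kb from that of *LIG4*, just past the upper end of *LIG4*. *ABHD13* had a log2FC of -0.21 in 11H1 and 0.13 in 14B5.

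*POLM*, a gap-filling polymerase of end joining, had the lowest log2FC of the group in KO versus WT, -0.22 ± 0.15 (adjusted p = 0.299). It was at 26.3, 25.6 and 23.7 CPM in WT, 25.9, 25.0 and 25.6 in 11H1, and 17.6, 18.0 and 18.2 in 14B5. Only the 14B5 libraries were low. *POLM* fell in 14B5 (log2FC -0.51 ± 0.06, edgeR adjusted p = 5.24e-05) and had a log2FC of 0.02 in 11H1. The median log2FC of its 10 nearest tested genes in 14B5 was 0.13.

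Clone 11H1 had the reverse pattern at *PRKDC*, the catalytic subunit of the DNA-dependent protein kinase, which rose there (log2FC 0.50 ± 0.07, edgeR adjusted p = 6.48e-05) and had a log2FC of -0.06 in 14B5. *PRKDC* libraries ran from 453 to 535 CPM in WT, 629 to 731 in 11H1 and 430 to 511 in 14B5. *TP53BP1* also rose in 11H1 (log2FC 0.38, adjusted p = 0.000325) and was at 0.05 in 14B5. In 14B5, *XRCC4* (log2FC 0.32), the scaffold of LIG4, and *XRCC6* (0.14) rose, the latter with reads shared with near copies. *NHEJ1*, a second scaffold, fell in 11H1 (log2FC -0.17, adjusted p = 0.0173). *AC068946.1* shares 65.4% of the exon bases of *NHEJ1* on the same strand, with up to 54.15 counts, so the *NHEJ1* counts are uncertain. *XRCC5*, the hairpin nuclease *DCLRE1C* and the polymerase *POLL* passed in neither clone (log2FC -0.08 to 0.06).

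Of 11 further end joining genes, 4 passed in KO versus WT, beside 32.0% of all genes, and each of them rose. *POLQ*, the polymerase of the alternative, microhomology-mediated pathway, was at a mean of 26.0 CPM in WT, 55.2 in 11H1 and 43.2 in 14B5. Its rise was the largest among all 48 further repair genes (log2FC 0.92, adjusted p = 0.000396). Over those 48 genes 16 rose and 4 fell, beside 14.3% and 17.7% of all genes. Of 16 S phase genes, 11 rose and 1 (*MCM6*) fell, with a median log2FC of 0.30. The S phase median was 0.22 in 11H1 and 0.36 in 14B5 versus WT. Whether repair genes varied together with S phase genes was not tested.

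**Figure D4:**
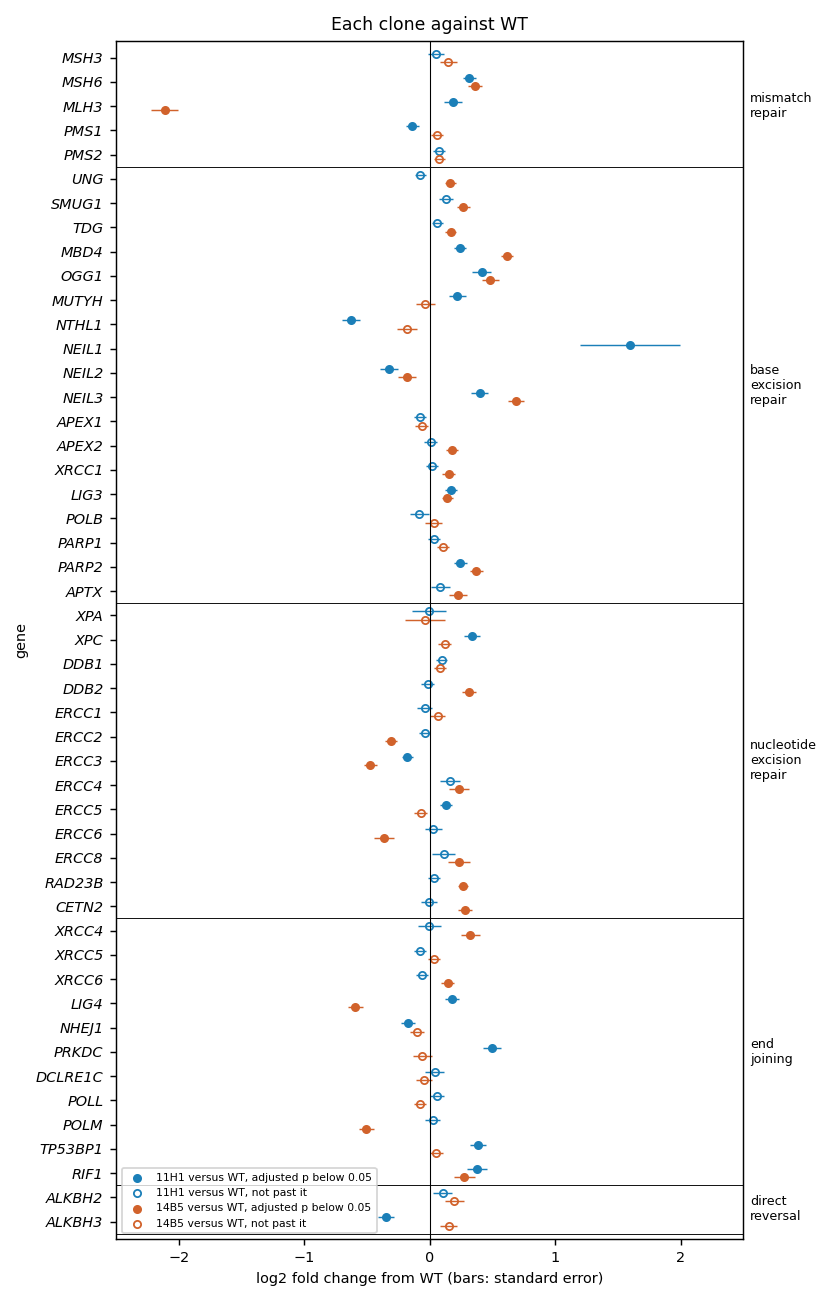
Log2 fold change from WT with its standard error in clone 11H1 (blue) and clone 14B5 (orange) for 49 repair genes, *MGMT* left out; filled points passed an adjusted p of 0.05. *MLH3* at -2.11 in 14B5 is the point farthest from 0.

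The clones were also set against WT and against each other over the whole list. In 11H1 versus WT, 22 of the 50 genes passed, 15 higher (*NEIL1* among them) and 7 lower, against a background of 64.6% of genes tested (31.8% higher and 32.8% lower). Without *MGMT* the count was 21 of 49, with 15 higher and 6 lower. The 11H1 and WT libraries did not overlap for 18 genes that were higher and 9 that were lower, beside 33.4% and 35.3% of all genes (68.7% in all). In 14B5 versus WT, 28 of 49 genes tested passed, 20 higher and 8 lower, against 53.5% (24.9% higher and 28.7% lower). Without *MGMT* the count was 27 of 48, with 20 higher and 7 lower. With *MGMT* kept and WT replicate 2 left out, 19 genes passed. The 14B5 and WT libraries did not overlap for 28 genes that were higher and 8 that were lower, beside 29.8% and 31.1% of all genes (60.9% in all). Both comparisons use the same WT libraries. Base excision genes had 7 higher and 2 lower of 18 in 11H1, and 11 higher and 1 lower of 17 in 14B5. Nucleotide excision genes had 2 higher and 1 lower of 13 in 11H1, and 5 higher and 3 lower in 14B5. End joining genes had 4 higher and 1 lower of 11 in 11H1, and 3 higher and 2 lower in 14B5.

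In 11H1 versus 14B5, 31 of 49 genes tested passed, with 12 higher (*NEIL1* among them) and 19 lower in 11H1. The background was 63.7% (31.6% higher and 32.1% lower), so the repair genes differed between clones about as often as genes in general. Apart from *NEIL1*, the largest differences were *MLH3* (log2FC 2.28, 4.81-fold higher in 11H1), *LIG4* (0.76), *PRKDC* (0.54) and *POLM* (0.51) on the side of 11H1, and *ALKBH3* (-0.52), *NTHL1* (-0.46) and *MBD4* (-0.39) on the side of 14B5. Of the 18 base excision genes, 10 passed as lower in 11H1 and 2, *NEIL1* among them, as higher. Past the threshold or not, 15 had a log2FC below 0 and 3 above it. The libraries of the clones did not overlap for 13 genes that were higher and 22 that were lower in 11H1, beside 33.6% and 35.1% of all genes (68.7% in all). *MGMT* was at 0 in both clones and was not tested between them.

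**Figure D5:**
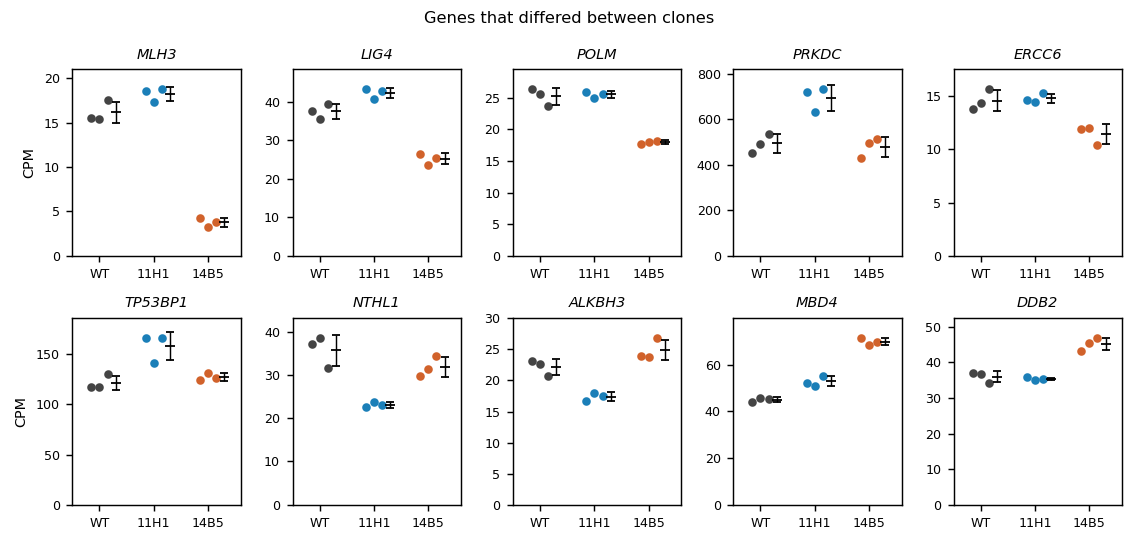
Level (CPM, linear axis from 0) in each library of 10 repair genes that differed between the clones, with the mean and SD of each group (n = 3). *MLH3*, *LIG4* and *POLM* are lowest in 14B5, and *NTHL1* and *ALKBH3* are lowest in 11H1.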

How the data were processed

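Expected counts from RSEM were deposited by the authors for the 9 libraries, not normalized for depth or gene length; their processing notes name STAR 2.7.9a, Picard, RSEM and GRCh38. Between 5.73% and 6.64% of values per library were not whole. The paper describes stranded mRNA libraries and the labels another kit, and use of strand in counting is not given in the sources used here: 25 of the 50 genes share exon bases with a gene on the opposite strand. Values were rounded, normalized by TMM, filtered by filterByExpr and tested with edgeR 4.0.16 (R 4.3.3) by the quasi-likelihood F test with Benjamini-Hochberg adjustment over all genes tested; steps were tested on simulated data. Members and lists were chosen with earlier results of these data known. Values in every library were given for *MGMT*, for members past the threshold in KO versus WT, for those past it in opposite directions in the clones, and for the largest rise and fall per pathway; values for *PRKDC* and others are given as ranges or log2FC. Alternatives were DESeq2 1.42.0 size factors and Wald test, limma 3.58.1 voom on unrounded values, no filter, at least 10 counts in every library, a single fit of 3 groups, a replicate block and each library left out.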

Additional observations from a re-analysis of the deposited data

Results flagged for a closer look

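The clones differed from each other by edgeR's test of 11H1 versus 14B5 at 31 of 49 repair genes tested, beside 63.7% of all genes; since both are set against the same WT libraries, this is the test of the difference between their effects. Values are log2FC, positive where 11H1 was higher. Among mismatch repair genes these were *MLH3* (2.28) and *PMS1* (-0.22). Of the base excision genes, *MUTYH* (0.24) was higher in 11H1, as was *NEIL1* (2.08), which entered the test through its 11H1 counts and was near the limit of 3 counts in 14B5. Lower were *NTHL1* (-0.46), *MBD4* (-0.39), *NEIL3* (-0.30), *UNG* (-0.26), *APEX2* (-0.18), *APTX* (-0.16), *SMUG1* (-0.15), *XRCC1* (-0.15), *PARP2* (-0.14) and *TDG* (-0.12). In nucleotide excision repair, *ERCC6* (0.38), *ERCC3* (0.28), *ERCC2* (0.25), *XPC* (0.20) and *ERCC5* (0.19) were higher in 11H1, and *DDB2* (-0.35), *CETN2* (-0.30), *RAD23B* (-0.25) and *ERCC1* (-0.12) were lower. In end joining, *LIG4* (0.76), *PRKDC* (0.54), *POLM* (0.51) and *TP53BP1* (0.32) were higher, and *XRCC4* (-0.34), *XRCC6* (-0.22) and *XRCC5* (-0.13) were lower. The direct reversal gene was *ALKBH3* (-0.52). The difference was lost for *PARP2* without 11H1 replicate 2 (adjusted p = 0.0671), for *XPC* without 11H1 replicate 1 (0.0534), and for *SMUG1* without 11H1 replicate 1 (0.0672) or 14B5 replicate 3 (0.0591). Each clone is a single founder, so the edit and differences between founders cannot be told apart here.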

How the results depend on the processing

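Counts of repair genes past the threshold are for KO versus WT 10, with 5 to 12 when single libraries were left out, 6 with the replicate block and 29 in a single fit of 3 groups, which takes its spread from within clones; DESeq2 gave 12. Counts stayed at 18 to 24 in 11H1 versus WT (22 as reported), 19 to 31 in 14B5 versus WT (28, with 20 under the replicate block) and 26 to 32 in 11H1 versus 14B5 (31) over all alternatives run. Replicate numbers did not pair the libraries: correlations of same-numbered libraries' deviations ran from -0.29 to 0.14, so the block result is a hint only. Single-gene values under the alternatives were compared only for the genes given in every library, and outside KO versus WT only where they had passed. Of these values, 697 kept direction and side of the threshold, 51 lost the threshold and 9 gained it, and none changed direction. Over all members, 9 of the 28 calls in 14B5 versus WT were lost without WT replicate 2 and 8 with the replicate block. *MGMT* is in the counts against WT, except with at least 10 counts in every library, where it has no value. At these depths a gene under about 0.0914 CPM in a library could not be told from absent.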
